A study of Mus musculus with 8 samples.

Results

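The RNA response of Gcn2 knockout (KO) cells to 1 h without leucine is described here for 12250 genes, those with a mean count of 30 or more over the 4 RNA-seq libraries, of 55536 genes listed in the files. The cells were KRPC-A, mouse pancreatic tumour cells taken from tumours of genetically engineered animals on a C57BL/6 background. The tested library came from Gcn2 KO cells in leucine-free medium (KO leucine-free), and it was set against Gcn2 KO cells switched for the same time to medium with all amino acids (KO replete). Gcn2 wild-type (WT) cells in leucine-free and in replete medium (WT leucine-free and WT replete) gave the same comparison with the gene intact. The sources used here do not say how the knockout was made, whether the KO cells were a clone, or which alleles the tumours carried. Each group is 1 library, so a difference has no replicate check and no p-value is given. Every ratio describes 2 libraries, and culture-to-culture spread is unknown.

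GCN2, encoded by Eif2ak4, is a kinase that is activated by uncharged transfer RNA when an amino acid runs short. Its substrate is the translation factor eIF2alpha, and phosphorylation slows initiation on most mRNAs while raising it on Atf4, whose product is a transcription factor for amino acid synthesis and transport genes. Immediate early genes are a separate class. They encode transcription factors, phosphatases and mRNA decay factors that cells switch on within minutes of a growth or stress signal, mostly without new protein synthesis, from short genes whose mRNAs decay fast.

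Early response genes led the RNA that was higher in KO leucine-free cells. Transcripts of the FOS, JUN and EGR families, of the decay factors Btg2 and Zfp36, of MAP kinase phosphatases and of secreted signals such as Ptgs2, Areg and Ccn1 stood several-fold above KO replete cells. Targets of ATF4 and CHOP, transporters, aminoacyl-tRNA synthetases, ribosomal protein genes, cell cycle genes and lysosomal genes had median ratios near 0. Most genes called lower had few reads, and few of them stood on any of these lists. Of the 12250 genes, 314 were called higher, 2.56% of those measured, and 316 were called lower, 2.58%. A call means a log2 ratio of at least 1 in size whose 95% counting interval excludes 0. In WT cells the same rule called 130 genes higher, 1.06%, and 235 lower, 1.92%.

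The 4 RNA-seq libraries held 49136610 (KO leucine-free), 59132491 (KO replete), 60680169 (WT leucine-free) and 57455985 (WT replete) counted reads. Protein-coding genes took 63.8%, 64.2%, 67.2% and 72.9% of them in that order, and mitochondrial ribosomal RNA took 33.6%, 33.3%, 30.5% and 24.7%. Levels are counts per 1000000 counts (CPM) over the scaled protein-coding total, and ratios are log2 of scaled counts, leucine-free over replete. Both are relative to the other genes of a library, so a change in total RNA would not show. Intervals in parentheses are 95% limits for counting error alone. No molecular identifiers were described, so amplified copies count as separate reads.

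The labels were checked on Eif2ak4 (ENSMUSG00000005102, chromosome 2, GRCm38 positions 118388618 to 118475234, plus strand). It had 16.6 CPM in KO leucine-free and 13.6 CPM in KO replete cells, against 70.2 CPM in WT leucine-free and 86.0 CPM in WT replete cells. Both KO libraries were thus low, with a KO log2 ratio of 0.29 (95% counting interval 0.11 to 0.46). Which exons the knockout removed is not given, so these counts do not measure loss of the protein. Of 20 markers of pancreatic duct and epithelium 9 were measured. The keratin gene Krt18 had 280, 145, 106 and 59.7 CPM in KO leucine-free, KO replete, WT leucine-free and WT replete cells, while the epithelial adhesion gene Epcam had 0 counts in all 4 libraries and Krt19 had 7, 10, 13 and 25 counts. Of 24 fibroblast and mesenchymal markers 16 were measured, with summed levels of 4335, 4067, 5145 and 4275 CPM in the same order. None of 22 acinar and endocrine markers and none of 20 immune and endothelial markers was measured, and their summed levels stayed at or below 0.48 and 1.16 CPM. The PDAC-like label therefore rests on few of its defining markers. In bulk RNA, fewer cells of a type and less RNA per cell cannot be told apart.

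Higher and lower calls were spread differently over depth. Among the 6046 genes with a mean count of at least 1000 in the 2 KO libraries, 56 were called higher and 1, the unclassified RNA Gm23935, was called lower. Among the 1963 genes under 100 counts, 189 were higher and 265 lower. The standard deviation of the KO log2 ratio over genes was 0.97 under 100 counts and 0.29 from 3000 counts, against 0.70 and 0.24 for the WT ratio of the same genes. Genes with a KO mean count of at least 100 are the base of most statements that follow. There were 10287 of them, with 125 called higher (1.22%) and 51 called lower (0.496%). At the limit of measurement, Aqp5 with a mean count of 30 had 29 counts in KO leucine-free and 12 in KO replete cells, a log2 ratio of 1.53. Tubg2 with a mean of 29.75 had 30 and 54 counts, a log2 ratio of -0.54, and was left out.

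**Figure D1:**
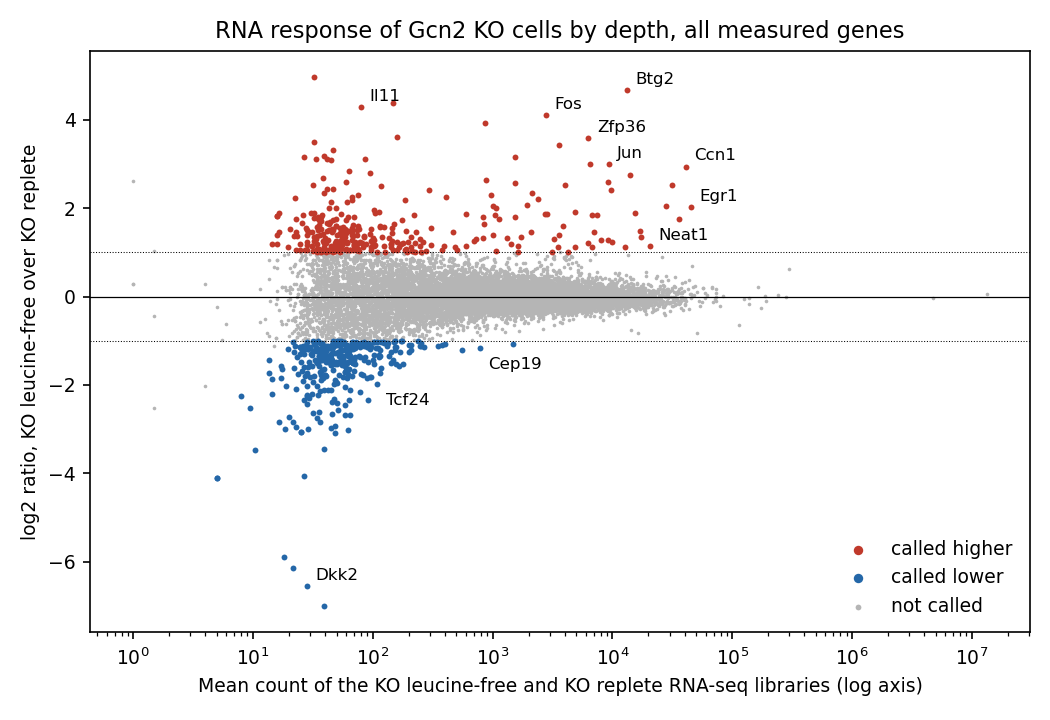
Log2 ratio of RNA (KO leucine-free over KO replete) against the mean count of both KO libraries on a log axis, 1 point per measured gene, with called genes in red and blue and dotted lines at a log2 ratio of 1 in size. Above 1000 counts 56 genes lie in the red group and 1 in the blue group, while most called genes under 100 counts are scattered on both sides.

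Early transcription factors were the list with the highest median. Of 42 listed genes 40 were measured, and 38 of them lay above 0. Of the 40, 23 were called higher (57.5%, against 2.56% of all measured genes) and none lower. Their median log2 ratio was 1.19, against -0.01 over all measured genes and against 0.29 for the same 40 genes in WT cells. The list was drawn up with earlier results of these data known, so its direction is a description.

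Fos encodes the AP-1 subunit that pairs with JUN proteins. The gene (ENSMUSG00000021250) lies on chromosome 12, positions 85473890 to 85477273, plus strand. Its RNA was at 166 CPM in KO leucine-free cells, 9.64 CPM in KO replete cells, 13.1 CPM in WT leucine-free cells and 2.91 CPM in WT replete cells. KO leucine-free cells thus stood above the other 3 libraries, and KO replete cells lay between the WT pair. The log2 ratio was 4.10 (3.95 to 4.26) in KO cells and 2.17 in WT cells.

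Jun, which encodes the AP-1 partner of FOS, had 516, 65.0, 61.2 and 38.1 CPM in the same order and a KO log2 ratio of 2.99 (2.93 to 3.05). Junb, a JUN paralogue, had 1386, 333, 176 and 77.9 CPM and a ratio of 2.06 (2.03 to 2.09). In both, the KO replete library already lay above both WT libraries. Fosb stood at 3.16, Fosl2 at 1.90 and Jund at 1.03, while Fosl1 stood at 0.79 and was not called. AP-1 genes thus covered a wide range, with the 2 FOS genes Fos and Fosb at its upper end.

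All 4 EGR genes, zinc finger factors of the early growth response, were called higher. Egr1 had 2242 CPM in KO leucine-free, 553 in KO replete, 651 in WT leucine-free and 226 in WT replete cells, with log2 ratios of 2.02 in KO and 1.53 (1.49 to 1.56) in WT cells. For Egr1 the KO and WT ratios were thus closer than for Fos or Jun. Egr3 had 758, 112, 52.9 and 31.0 CPM and a KO ratio of 2.75. Egr2 stood at 3.43 and Egr4, from 278 and 16 counts, at 4.37 (3.69 to 5.24). Arc, an activity-regulated cytoskeletal gene, had 291 counts in KO leucine-free cells, 29 in KO replete cells, 6 in WT leucine-free cells and 5 in WT replete cells.

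The remaining called members were Nr4a1, an orphan nuclear receptor, at 2.33, Ier2 at 2.58, Ier3 at 2.57, Atf3, a stress-induced repressor, at 3.91, Phlda1, with 52.6 CPM in KO leucine-free and 13.1 CPM in KO replete cells, Klf6 at 1.75, Klf4 at 1.58, Ier5l at 1.38, Sox9 at 1.36, Klf10 at 1.27, Hes1 at 1.12 and Csrnp1 at 1.01. Not every early gene was called. Myc had 971, 849, 808 and 1092 CPM in KO leucine-free, KO replete, WT leucine-free and WT replete cells, a KO log2 ratio of 0.19. Nr4a2, a paralogue of Nr4a1, stood at 0.09, Srf at 0.43, Rgs2 at -0.01 and Snai2 at -0.05. Nr4a3, another paralogue of Nr4a1, was under the count limit. Sox9, a duct and progenitor factor, is also a duct marker. Among the 9 measured duct and epithelial markers it was the 1 called gene, their median was 0.12, and their summed level was 1658 CPM in KO leucine-free and 1003 CPM in KO replete cells. The part of epithelial identity in the Sox9 value was not tested.

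**Figure D2:**
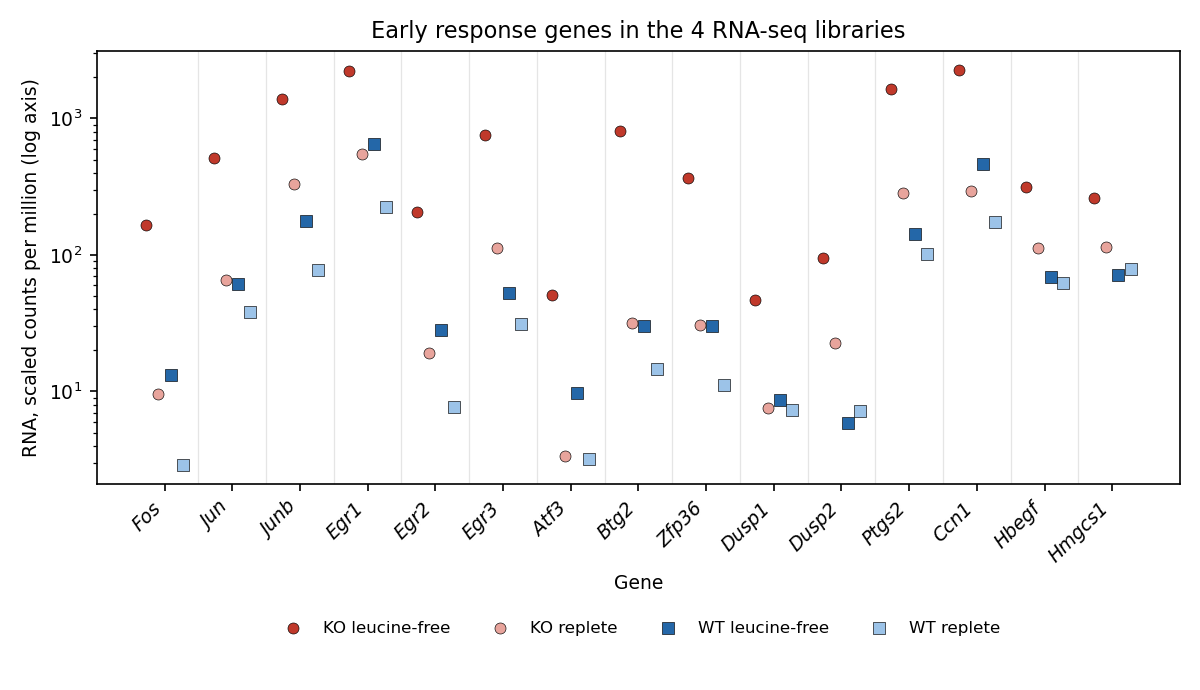
RNA level in CPM (log axis) of 15 called genes in the 4 RNA-seq libraries, 1 point per library, with KO libraries as circles and WT libraries as squares. The KO leucine-free point is the highest of the 4 for every gene shown, and for Fos, Egr1, Egr2 and Ccn1, among others, the WT leucine-free point lies above the KO replete point.

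Among 23 measured mRNA decay and antiproliferative regulators the median was 0.05. Of them 2 genes were called higher (8.70%) and 1 lower, against 2.56% and 2.58% of all measured genes. Btg2 encodes an antiproliferative partner of the CCR4-NOT deadenylase and led the genes with a KO mean count of at least 100. The gene (ENSMUSG00000020423) lies on chromosome 1, positions 134075170 to 134079120, minus strand. It had 806 CPM in KO leucine-free cells, 31.7 in KO replete cells, 30.1 in WT leucine-free cells and 14.6 in WT replete cells. Only the KO leucine-free library stood apart by that much, since KO replete and WT leucine-free cells were nearly level. The KO log2 ratio was 4.67 (4.59 to 4.75), above the WT ratio by 3.62 (3.46 to 3.79).

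Zfp36 encodes tristetraprolin, which recruits decay enzymes to AU-rich mRNAs. It had 366, 30.6, 30.2 and 11.1 CPM in KO leucine-free, KO replete, WT leucine-free and WT replete cells and a KO log2 ratio of 3.58 (3.49 to 3.67). Its paralogues were far nearer to 0, with Zfp36l1 at 0.23 and Zfp36l2 at 0.36, and so was Btg1 at 0.29. Btg3 was called lower at -1.34, from 31 counts in KO leucine-free and 97 in KO replete cells. The deadenylase and decapping genes of the list were not called.

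Upstream sequences of 3 higher genes are shown because each holds the cyclic AMP response element (CRE), whose shares over higher, lower and all genes follow. They are the 250 bases before the RefSeq start (GRCm38.p6), 5′ to 3′ on the gene's strand, at chr1:134079156-134079405 for Btg2, minus strand, chr13:110394794-110395043 for Plk2, plus strand, and chr5:91139349-91139598 for Areg, plus strand. Plk2 encodes a polo-like kinase and Areg a ligand of the EGF receptor. Capitals mark the CRE, TGACGTCA. The Btg2 match lies 166 to 159 bases before the start, and that of Areg 61 to 54. The Plk2 match lies 62 to 55 bases before its start.
Btg2: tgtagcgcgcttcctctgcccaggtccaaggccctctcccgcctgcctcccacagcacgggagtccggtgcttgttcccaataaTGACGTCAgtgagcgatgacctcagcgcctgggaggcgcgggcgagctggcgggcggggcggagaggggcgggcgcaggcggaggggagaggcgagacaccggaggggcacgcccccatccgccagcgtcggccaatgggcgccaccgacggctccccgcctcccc
Plk2: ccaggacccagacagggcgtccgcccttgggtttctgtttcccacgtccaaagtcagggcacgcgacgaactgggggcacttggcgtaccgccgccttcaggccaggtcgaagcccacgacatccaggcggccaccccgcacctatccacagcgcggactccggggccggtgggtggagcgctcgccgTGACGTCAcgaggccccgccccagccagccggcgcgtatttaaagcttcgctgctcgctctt
Areg: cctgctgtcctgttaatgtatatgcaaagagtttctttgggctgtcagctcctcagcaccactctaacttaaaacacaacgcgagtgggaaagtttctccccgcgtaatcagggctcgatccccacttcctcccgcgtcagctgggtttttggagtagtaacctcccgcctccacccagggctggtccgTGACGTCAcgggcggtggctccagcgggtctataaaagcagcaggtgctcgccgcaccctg

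Over all called genes with a matched promoter and a KO mean count of at least 100, TGACGTCA occurred in 6 of 65 higher genes (9.23%), in 1 of 25 lower genes (4%) and in 237 of all 7850 genes (3.02%). The other holders among higher genes were Dusp1, Dusp8 and Has1. Called genes without a matched promoter were not searched, and Egr1, Egr3, Arc, Ccn2 and Hbegf were among them. The 65 searched higher genes compare with 93 higher protein-coding genes of this depth. For 7 of the 65 higher genes, Dusp1 and Zfp36 among them, the RefSeq start lies more than 1000 bases from the 5′ end of the gene model on which reads were counted, so their windows may not be the ones upstream of the counted RNA. The core TGACG, which every CRE also holds, occurred in 29 of 65 higher genes (44.6%) and in 29.4% of all genes. The CArG box, the site of serum response factor, occurred in 3 of 65 (4.62%), namely Zfp36, Dusp5 and Blvrb, and in 1.10% of all. Shares for the NF-kappaB site were 15.4% and 8.69%, for the EGR site GCGNGGGCG 12.3% and 9.50%, for the AP-1 site TGANTCA 6.15% and 3.53%, and for TATAAA 12.3% and 5.49%. Both strands were searched, the shares were not tested, and a match is a run of letters, not a bound site.

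ERK feedback regulators shut off MAP kinase signalling. Of 23 measured members 5 were called higher (21.7%, against 2.56% of all measured genes) and none lower, and their median was 0.22. Dusp1, a nuclear MAP kinase phosphatase, had 47.0 CPM in KO leucine-free cells, 7.56 in KO replete cells, 8.73 in WT leucine-free cells and 7.33 in WT replete cells. The 3 other libraries were close to each other, and the KO log2 ratio was 2.63 (2.45 to 2.82) against 0.25 in WT cells. Dusp2 stood at 2.07, Dusp5 at 1.91, Dusp8 at 1.85 and Errfi1, an inhibitor of EGF receptors, at 1.48. The cytoplasmic ERK phosphatase Dusp6 had 991, 537, 520 and 357 CPM and, at 0.89, was not called. Spry4 stood at -0.08, Etv5 at -0.24 and Dusp7 at -0.40, so most of the list lay near 0.

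Of 39 listed cytokines, growth factors and secreted signals 25 were measured, with a median of 0.97 in KO and 0.48 in WT cells. In KO cells 12 were called higher (48%, against 2.56% of all measured genes) and none lower. Ptgs2 encodes the inducible cyclooxygenase of prostaglandin synthesis. It had 1649 CPM in KO leucine-free, 286 in KO replete, 142 in WT leucine-free and 101 in WT replete cells, with log2 ratios of 2.53 (2.50 to 2.56) in KO and 0.49 in WT cells. Ccn1, a matricellular protein gene, had 2246, 294, 461 and 175 CPM and a KO ratio of 2.94. KO leucine-free cells held the highest level of both genes.

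Ligands of the EGF receptor differed among themselves. Areg stood at 2.26 (2.01 to 2.51) and Hbegf at 1.47 (1.41 to 1.52), while Ereg at 0.91 was not called and Btc at -0.93 lay below 0. Of the other called members, Ccn2 stood at 2.40, the interferon-induced chemokine Cxcl10 at 2.18, Ccl7 at 2.18, the vasoconstrictor gene Edn1 at 1.90, Thbs1 at 1.22 and the neutrophil chemokine Cxcl1 at 1.19. Il11, a cytokine of the IL-6 family, had 150 counts in KO leucine-free cells, 9 in KO replete cells, 17 in WT leucine-free cells and 20 in WT replete cells. Its ratio of 4.28 has the wide interval of 3.39 to 5.51, and the 3 other libraries were at similar low counts. Il6, Il1a, Il1b, Tnf and Cxcl2 were under the count limit.

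Smaller groups held a few called genes beside medians near 0. Of 17 measured NF-kappaB genes 3 were higher, led by Tnfaip3, which encodes the feedback inhibitor A20, at 2.29 (2.13 to 2.45). Relb at 1.06 and Nfkbiz at 1.02 passed narrowly, and Nfkbia, which encodes IkappaB-alpha, stood at -0.04. Of 22 measured p53 and growth arrest genes 5 were higher, namely Gadd45g at 2.49, Plk2 at 1.84, Perp with 49 counts in KO leucine-free and 21 in KO replete cells, the cyclin-dependent kinase inhibitor gene Cdkn1a at 1.47 and Pmaip1 at 1.46, while Mdm2, a defining p53 target, stood at 0.05. Actg1 stood at 2.80 and Acta1 at -1.05 among 24 measured SRF and actin genes, whose median was 0.30. Actg1 counts were small, with 161, 28, 35 and 30 in KO leucine-free, KO replete, WT leucine-free and WT replete cells. Reads shared with near-identical copies were not counted, so the Actg1 value is uncertain. CREB and circadian genes had a median of -0.03, and none of 19 was called, against 2.56% higher and 2.58% lower over all measured genes.

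Of 24 measured FOXO targets and insulin feedback genes 6 were higher (25%, against 2.56% of all measured genes) and none lower. The median of the 24 was 0.08. Txnip, an inhibitor of glucose uptake and thioredoxin, had 31.2 CPM in KO leucine-free cells, 12.6 in KO replete cells, 48.0 in WT leucine-free cells and 22.6 in WT replete cells. Tsc22d3, which encodes GILZ, had 74.8, 29.2, 76.8 and 31.3 CPM in the same order. Both leucine-free libraries stood above both replete libraries for these 2 genes. Their KO and WT log2 ratios were nearly equal, at 1.31 and 1.09 for Txnip and 1.36 and 1.29 for Tsc22d3. Arrdc3 at 1.86, the repressor gene Bcl6 at 1.65, Ddit4 at 1.13 and Tsc22d1 at 1.12 were the other called members. Sesn3, a FOXO target and mTORC1 inhibitor, stood at -0.74. Among TGF-beta, BMP and Notch feedback genes Id3 at 1.11 and Hes1 were higher of 16 measured, with a median of 0.35. These 2 genes were 12.5% of that list, beside 2.56% of all measured genes.

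ATF4 and CHOP targets had a median of 0.04 in KO and 0.30 in WT cells over 34 measured genes. In KO cells 2 were called higher (5.88%) and none lower, against 2.56% and 2.58% of all measured genes. Both, Atf3 and the mTORC1 inhibitor gene Ddit4, also stand on the lists of early factors and of FOXO targets. Chac1, a glutathione-degrading enzyme gene that ATF4 activates, had 116 counts in KO leucine-free and 173 in KO replete cells, against 1024 in WT leucine-free and 196 in WT replete cells. WT leucine-free cells were the single high library, and the log2 ratio was -0.28 (-0.63 to 0.07) in KO and 2.43 in WT cells. Trib3, a pseudokinase gene of the same pathway, stood at -0.21 in KO and 1.40 in WT cells, and Herpud1 at -0.30 and 1.05. Asns, asparagine synthetase, lay close in both, at 0.36 in KO and 0.21 in WT cells. Ddit3, which encodes CHOP, had 199, 138, 315 and 149 counts in KO leucine-free, KO replete, WT leucine-free and WT replete cells. At 0.82 (0.50 to 1.15) it was not called in KO cells, and at 1.13 it was called higher in WT cells. The Ddit3 ratio in KO cells minus that in WT cells was -0.31 (-0.73 to 0.11), an interval that includes 0. Ppp1r15a, on the same list, stood at 0.68 in KO and 0.84 in WT cells, and Cebpb at 0.70 and -0.03. The KO ratio exceeded the WT ratio for 10 of the 34 genes. Atf4 RNA stood at 0.17 in KO and 0.90 in WT cells.

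None of 33 measured amino acid sensing genes and eIF2alpha kinases was called. The other kinases stood at -0.02 for Eif2ak1, which encodes HRI, -0.13 for Eif2ak2, which encodes PKR, and 0.18 for Eif2ak3, which encodes PERK. None of 21 amino acid transporter genes was called either. Slc7a5, the leucine transporter, had 381 CPM in KO leucine-free, 438 in KO replete, 583 in WT leucine-free and 591 in WT replete cells, a KO ratio of -0.20, and the cystine transporter gene Slc7a11 stood at 0.69. Cytosolic aminoacyl-tRNA synthetases ran from -0.22 for Kars to 0.38 for Farsa, a narrow range over 20 genes. Among 11 mRNAs translated through upstream open reading frames none was called, with a median of 0.17. Over all measured genes 2.56% were called higher and 2.58% lower, so lists of this size would hold few calls in any case.

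Growth and housekeeping groups stayed near 0. DNA replication genes had a median of -0.01 over 42 members, G2 and mitosis genes -0.03 over 38, ribosome biogenesis genes 0.09 over 49 and endoplasmic reticulum chaperones 0.05 over 27, with no called member in any of them. With 2.56% of all measured genes called higher and 2.58% lower, few calls would fall in such lists in any case. Ribosomal protein genes had a median of 0.07 over 76 in KO cells, against 0.31 in WT cells. Of them 2 were called lower, among them Rpl18 at -1.22, on 59 counts in KO leucine-free and 169 in KO replete cells, counts that near-identical copies make uncertain. Mitochondrially encoded mRNAs ran from -0.09 for mt-Nd4 to 0.08 for mt-Nd2 over 7 measured genes. The other 6 listed mitochondrial genes were under the count limit. Reads shared with near-identical copies or overlapping genes were not counted, so their low counts do not measure how abundant these mRNAs were.

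Of 41 lysosomal hydrolase genes only the cathepsin gene Ctsh was called, at 1.37 from 114 counts in KO leucine-free and 54 in KO replete cells, and their median was 0.05. Ctsh is 2.44% of its list, beside 2.56% of all measured genes called higher and 2.58% called lower. Of 36 autophagy and TFEB genes none was called, with Atg12 at 0.74 and Map1lc3a at -0.62. The 27 measured heat shock genes had a median of 0.08, and the testis-enriched family member Hspa2 was called lower at -1.26. Among 28 glycolysis and hypoxia genes Eno2, a neuronal enolase, was called higher from 107 counts in KO leucine-free and 43 in KO replete cells.

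Cholesterol and fatty acid synthesis genes had a median of 0.14 over 30 members. Hmgcs1 encodes a synthase of the sterol pathway and lies on chromosome 13, positions 119690379 to 119708260, plus strand. It had 262 CPM in KO leucine-free cells, 114 in KO replete cells, 71.2 in WT leucine-free cells and 78.7 in WT replete cells. The medium separated the KO pair and left the WT pair near level, with log2 ratios of 1.20 (1.15 to 1.26) in KO and -0.14 in WT cells. Insig1, a sterol-sensing retention factor, stood at 0.93 in KO and 0.02 in WT cells and was not called. Sqle at -0.05 and Acaca at -0.33 lay below 0.

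**Figure D3:**
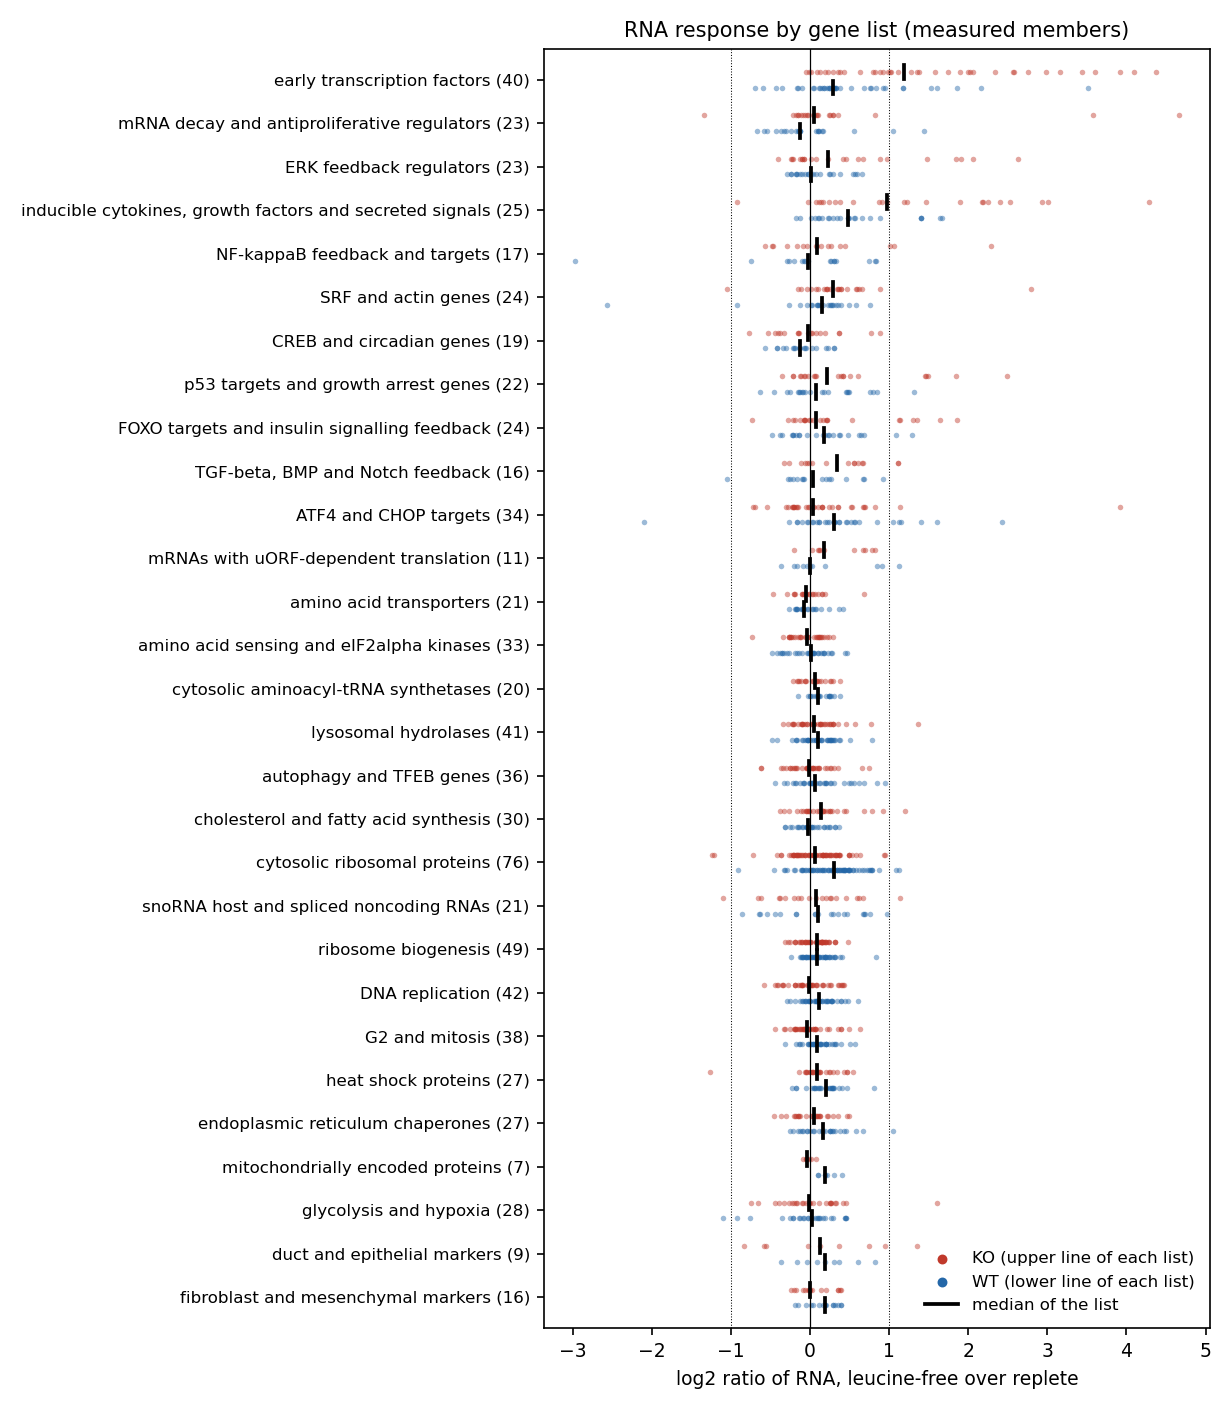
Log2 ratio of RNA (leucine-free over replete) of the measured members of 29 gene lists, KO in red on the upper line and WT in blue on the lower line of each list, with black bars at the median and the number measured in parentheses. The early transcription factors (KO median 1.19) and the secreted signals (0.97) lie to the right, and the KO medians of the other lists lie between -0.05 and 0.35.

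Genes not classed as protein-coding were called more often than protein-coding genes. They comprise noncoding RNAs, pseudogenes and 773 genes with no RefSeq class. Of these 1436 measured genes 126 were higher (8.77%) and 161 lower (11.2%), against 188 higher (1.74%) and 155 lower (1.43%) of 10814 protein-coding genes. Many of these genes had low counts, so the shares mix class and depth, and their difference was not tested. Neat1, the architectural RNA of paraspeckles, lies on chromosome 19, positions 5824708 to 5845478, minus strand. It had 850 CPM in KO leucine-free cells, 385 in KO replete cells, 374 in WT leucine-free cells and 423 in WT replete cells. Its KO ratio was 1.14 (1.11 to 1.17) and its WT ratio -0.18. Malat1, the neighbouring nuclear RNA, had a KO ratio of 0.62 and a WT ratio of -0.44, so it shared the sign pattern without being called.

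Transcripts at or near microRNA loci were among the higher genes of this kind, chosen for description after their values were seen. An annotated hairpin lay within 20 kb on the same strand of 12 of the 126 higher genes not classed as protein-coding (9.52%), 8 of 161 lower ones (4.97%) and 52 of 1149 uncalled ones (4.53%). Hairpin genes can meet this rule by their own hairpin, as did Mir23a and Mir222 among higher and Mir703 and Mir5125 among lower genes. Genes classed as microRNA numbered 2 higher, 2 lower and 7 uncalled. Mir23a and Gm37352 lie at the same locus, as do Mir222 and Gm14636, so the shares count genes and not loci. Mature sequences from 3 such loci follow, from RefSeq (GRCm38.p6), 5′ to 3′, because called RNAs contain their hairpins or lie within 20 kb of them. Among the hairpin genes, Mir24-2, Mir199a-2 and Mir214 had 0 counts in all 4 libraries, and Mir27a and Mir221 were under the count limit. Mir199a-2 and Mir214 lie inside the higher RNA Dnm3os. Reads shared by overlapping genes were not counted, so the counts of these hairpin genes do not show absence of their RNA. Capitals mark the seed, bases 2 to 8, which pairs with target mRNAs. MiR-221-3p and miR-222-3p share the seed GCUACAU, and the other 6 differ from it and from each other.
mmu-miR-23a-3p: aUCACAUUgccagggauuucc
mmu-miR-27a-3p: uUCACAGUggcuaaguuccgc
mmu-miR-24-3p: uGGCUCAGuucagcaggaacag
mmu-miR-221-3p: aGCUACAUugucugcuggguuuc
mmu-miR-222-3p: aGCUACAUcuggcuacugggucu
mmu-miR-199a-5p: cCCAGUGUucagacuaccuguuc
mmu-miR-199a-3p: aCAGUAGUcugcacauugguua
mmu-miR-214-3p: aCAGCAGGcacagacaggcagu

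At the first locus, Mir23a (chromosome 8, positions 84208518 to 84208592, plus strand) had 476 counts in KO leucine-free cells, 110 in KO replete cells, 84 in WT leucine-free cells and 100 in WT replete cells. The unclassified RNA Gm37352, 5469 bases upstream, had 3799, 1007, 783 and 1206 counts. KO leucine-free cells were the high library for both, with KO log2 ratios of 2.40 and 2.21 and WT ratios of -0.20 and -0.57. At the second, Gm14636, which lies 10010 bases upstream of Mir222 on chromosome X, had 1229, 435, 679 and 743 counts and ratios of 1.79 in KO and -0.08 in WT cells, and Mir222 itself stood at 1.75 on 72 and 26 counts in the KO pair. At the third, Dnm3os (chromosome 1, positions 162217623 to 162225550, plus strand), which contains the hairpins of miR-199a-2 and miR-214, had 352 CPM in KO leucine-free, 97.7 in KO replete, 142 in WT leucine-free and 123 in WT replete cells, a KO ratio of 1.85 (1.79 to 1.90). 3110039I08Rik, which spans the hairpins of Mir100, Mirlet7a-2 and Mir125b-1 on chromosome 9, stood at 1.11. These are reads of long or precursor RNA, and mature microRNAs were not measured. Mir155hg, the host of miR-155, went the other way at -1.10 on 42 and 111 counts.

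Histone genes with names in Hist, a set chosen after their values were seen, lay above 0 in both genotypes. Of 52 measured 45 were above 0 in KO cells, 12 were called higher and none lower, with a median of 0.63. Their WT median was 1.03, with 28 called higher and 1 lower, and the KO ratio exceeded the WT ratio for 18 of 52. Over all measured genes 2.56% were called higher and 2.58% lower in KO cells, and 1.06% and 1.92% in WT cells. Hist1h1d, a linker histone gene, had 4851 counts in KO leucine-free, 2266 in KO replete, 3678 in WT leucine-free and 1566 in WT replete cells, with ratios of 1.39 in KO and 1.28 in WT cells. Both leucine-free libraries were thus above both replete ones. Most histone mRNAs lack a poly(A) tail, and whether polyadenylated RNA was selected is not given in the sources used here.

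Higher protein-coding genes were short. The 93 with a KO mean count of at least 100 had a median genomic span of 6051 nt with 4 exon blocks, against 26208 nt and 10 blocks over all 9789 such genes. Of them 62 (66.7%) spanned under 10 kb, as did 20.9% of all. The 37 lower genes had a median span of 20674 nt and 7 blocks. Together the 93 genes took 2.17% of scaled protein-coding counts in KO leucine-free cells, 0.543% in KO replete cells, 0.545% in WT leucine-free cells and 0.325% in WT replete cells. KO replete cells already had more RNA than WT replete cells for 64 of the 93, against 4903 of all 9789.

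Lower genes were mostly of low count. Tcf24, a bHLH factor gene, had the lowest ratio from 100 counts up, with 37 counts in KO leucine-free cells, 181 in KO replete cells, 77 in WT leucine-free cells and 86 in WT replete cells. Here the KO replete library was the high one and the WT pair lay between the KO pair. The same order held for Plppr2, with 45, 186, 103 and 102 counts and a ratio of -1.74 (-2.26 to -1.28). Zinc finger genes Zfp605 and Zfp772 stood at -1.53 each, and Ttn, the giant muscle protein gene, at -1.44 in KO and -1.07 in WT cells. Cep19, a centrosomal and ciliary protein gene and among the better counted lower genes, had 421, 1154, 863 and 826 counts and a ratio of -1.16. Of the 37 lower protein-coding genes with a KO mean count of at least 100, KO replete cells exceeded WT replete cells for 27, against 4903 of all 9789. A high KO replete count is part of what makes a gene called lower. The part of a high KO replete library in these calls was not tested.

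Under 100 counts the extremes rest on a handful of reads. Dkk2, a Wnt antagonist gene, had 0 counts in KO leucine-free cells, 57 in KO replete cells, 70 in WT leucine-free cells and 57 in WT replete cells. The 95% counting limit nearest to 0 of its log2 ratio was -3.61. The same limit was -4.07 for Gm10658, -3.19 for BC030343, -2.92 for Gm44837, and -0.87 for both Gprin3 and Chst11, which also had 0 counts in KO leucine-free cells. The last pair had 10 counts each in KO replete cells, so their limits fall short of a log2 ratio of -1. Both WT libraries held reads of all 6 genes. Hist1h1a led the higher side at 4.96 (3.36 to 8.35) on 63 and 2 counts.

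The WT comparison has its own pair of libraries, and the KO and WT ratios share no library. Of the 314 genes higher in KO cells 31 (9.87%) were also higher in WT cells and 20 were lower, while those 31 made up 23.8% of the 130 genes higher in WT cells. Of the 316 lower genes 34 (10.8%) were lower in WT cells, which is 14.5% of 235, and 11 were higher. Over all 12250 measured genes 1.06% were called higher and 1.92% lower in WT cells. Opposite calls numbered 31 in all, and 1 of them, the carboxypeptidase subunit gene Cpn1 with 136, 83, 3 and 15 counts, had a KO mean count of at least 100. For the 93 higher protein-coding genes with a KO mean count of at least 100, the WT ratio was above 0 for 80 (86.0%), with a median of 0.52 and 22 called higher. Over all 9789 protein-coding genes of that depth the WT ratio was above 0 for 52.2%, with 58 called higher.

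Differences of single genes between the genotypes ran both ways. Besides Btg2, the KO ratio exceeded the WT ratio by 2.30 (2.19 to 2.41) for Jun and 2.04 (1.98 to 2.11) for Ptgs2. For Dusp2, with 95.3 CPM in KO leucine-free, 22.7 in KO replete, 5.89 in WT leucine-free and 7.19 in WT replete cells, the difference was 2.35 (2.09 to 2.62), and the WT ratio lay below 0. Hmgcs1 differed by 1.35 (1.26 to 1.43) and Neat1 by 1.32 (1.27 to 1.36). In the other direction Chac1 differed by -2.71 (-3.12 to -2.31), Trib3 by -1.61 (-1.99 to -1.23) and Atf4 by -0.73 (-0.78 to -0.69). Over all 12250 genes the KO and WT ratios had a Spearman correlation of 0.15, which describes genes of these 4 libraries and is no test.

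**Figure D4:**
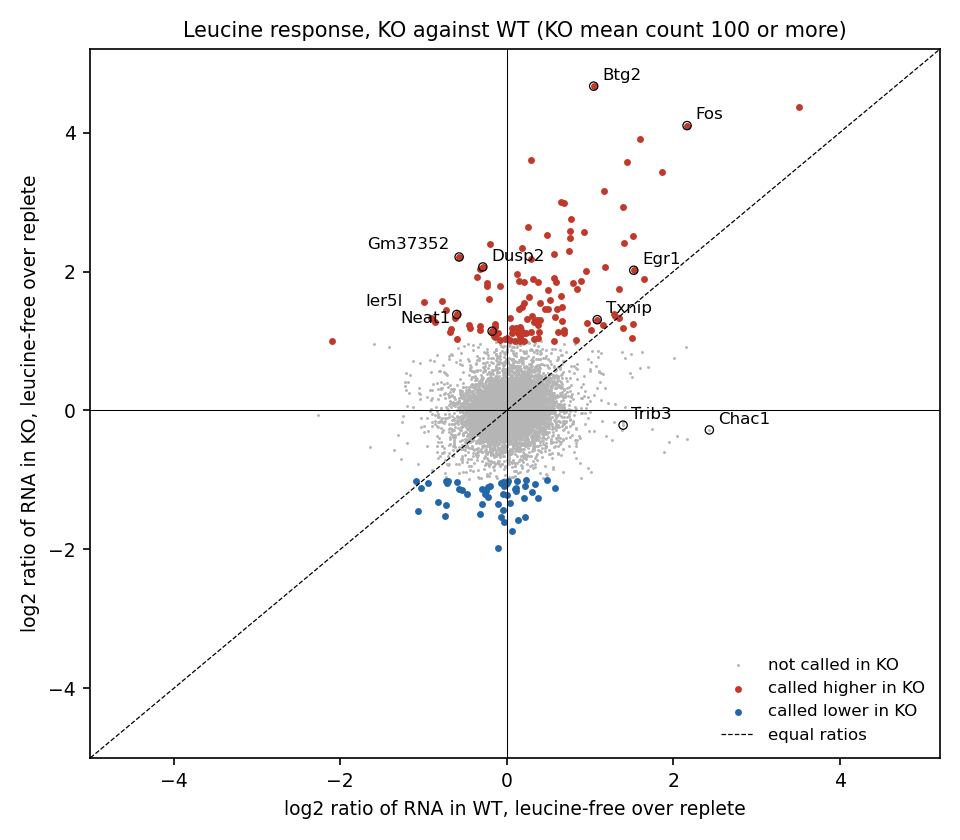
Log2 ratio of RNA (leucine-free over replete) in KO cells on the vertical axis and in WT cells on the horizontal axis for 10287 genes with a KO mean count of at least 100, with genes called in KO in red and blue, open circles around labelled genes and the dashed line at equal ratios. Btg2 and Fos lie far above the line, Txnip lies near it, and Chac1 and Trib3 lie on the right with KO ratios near 0.

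Ribosome footprints, pieces of mRNA left under ribosomes after nuclease digestion, were counted in separate libraries of the same groups. Whether RNA and footprints came from the same dishes is not given in the sources used here. Of the 93 higher protein-coding genes 82 were measured in footprints of KO cells, 72 of them (87.8%) had a footprint log2 ratio above 0, and 52 were called higher and none lower. Over the 9261 genes measured in both assays 142 were called higher in footprints, 1.53%, and 54 lower, 0.583%. Among all 8887 protein-coding genes of the same RNA depth the footprint ratio was above 0 for 47.1%, with 117 called higher and 50 lower. The median footprint ratio of the 82 genes was 1.28. Fos stood at 4.25 in footprints and 4.10 in RNA, Btg2 at 3.80 and 4.67, Zfp36 at 3.60 and 3.58, and Dusp1 at 3.52 and 2.63.

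Some higher RNAs had footprints that did not follow to the same extent. Ccn2, a connective tissue growth factor, had 15810 RNA counts in KO leucine-free and 3661 in KO replete cells, but 499 and 503 footprint counts, a footprint ratio of 0.56 against 2.40 in RNA. Klf10 stood at 0.71 in footprints and 1.27 in RNA, and Thbs1 at 0.61 and 1.22. Ddit3 showed the reverse, with 0.82 in RNA and 3.63 in footprints on 37 and 4 footprint counts. Of the 37 lower protein-coding genes 15 were measured in footprints, 6 were above 0, and none was called, with a median of -0.57. Over all 9261 genes the RNA and footprint ratios had a Spearman correlation of 0.06 and a Pearson correlation of 0.28, as a description across genes.

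**Figure D5:**
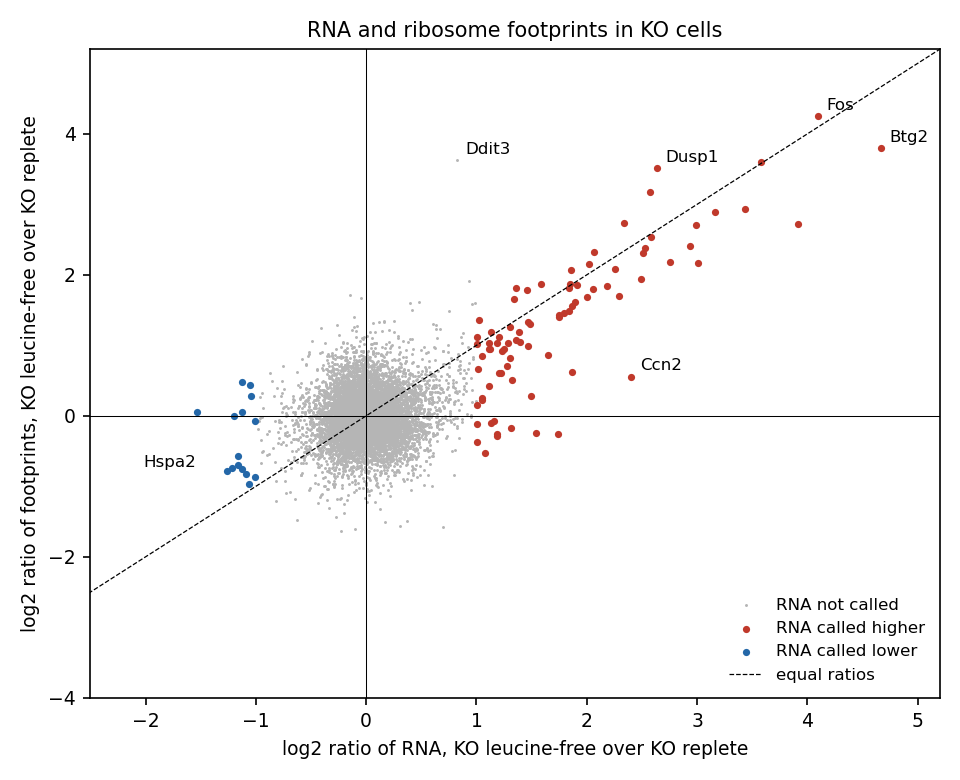
Log2 ratio of ribosome footprints against log2 ratio of RNA, both KO leucine-free over KO replete, for 8887 protein-coding genes measured in both assays with a KO mean RNA count of at least 100, coloured by their RNA call. Of the 82 red points 72 lie above 0 in footprints and follow the dashed line of equal ratios in the upper right, with Ccn2 below it. Of the 15 blue points 6 lie above 0 in footprints, and the median footprint ratio of the 15 is -0.57.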

How the data were processed

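RNA-seq read counts per gene were deposited by the authors as raw counts without normalization. Per the file headers they were made with featureCounts 1.6.4 on exons of Ensembl release 96, and no option for strand, multi-mapping or overlapping reads was set. The submitters' processing notes also name cutadapt, STAR, Subread and GRCm38. Reads shared by near-identical copies or overlapping genes are therefore missing, and a gene and its antisense partner cannot be told apart.

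From the counts, libraries were scaled within each assay by TMM factors over protein-coding genes (edgeR 4.0.16 in R 4.3.3). Ratios used a prior of 0.5 counts, and 95% intervals are exact conditional binomial (Clopper-Pearson) limits. Differences between genotypes carry a normal-approximation counting interval. A call needs a mean count of 30, a log2 ratio of 1 in size and an interval without 0. Gene classes came from RefSeq (GRCm38.p6), matched by symbol or synonym, and 16878 listed genes, measured or not, had none. Footprint libraries of KO cells held 4563018 (leucine-free) and 6921265 (replete) counts. The calculations ran in Python 3.11.15 with pandas 2.3.3, numpy 2.4.6 and scipy 1.17.1. Calls were checked on simulated counts that held counting error alone, so the check covers the calculation and not culture-to-culture spread.

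The members and the 31 gene lists were chosen with earlier results of these data known. Named genes were the 15 highest and 15 lowest called genes with a KO mean count of at least 100, the 5 highest and 5 lowest below it, called and extreme members of each list, the eIF2alpha kinases with 5 ATF4 pathway genes, and the 10 largest differences from WT in each direction. Other uncalled list members, microRNA locus transcripts, histone genes and genes picked to contrast RNA with footprints were chosen after their values were seen. Alternatives were other scalings (DESeq2 1.42.0 size factors among them), count limits, priors, call thresholds and removal of a length trend. Drawings used matplotlib 3.10.9. A few list members are not reported here.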

Additional observations from a re-analysis of the deposited data

Results flagged for a closer look

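For 29 genes with a KO mean count of at least 100, taken from those chosen by the naming rule or named in the text, the KO and WT log2 ratios had opposite signs, differed by at least 1, and had a counting interval of the difference that excludes 0. Each value is the KO log2 ratio minus the WT log2 ratio. For some of these genes, among them Gm14636, Mir23a and Creb5, the counting interval of the WT ratio includes 0. Their sign in WT cells is then uncertain. For Chac1 the counting interval of the KO ratio includes 0, so its sign in KO cells is likewise uncertain. With 1 library per group the difference was not tested across cultures.

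The KO ratio was the higher for 16 genes. Among genes of signalling, Dusp2 differed by 2.35 (KO 2.07, WT -0.29), Ier5l by 1.98 (KO 1.38, WT -0.60), Socs1 by 2.07 (KO 1.84, WT -0.24), Fosl1 by 1.48 (KO 0.79, WT -0.69) and Creb5 by 1.01 (KO 0.88, WT -0.13). The ubiquitin ligase adaptor gene Kctd11 differed by 2.03 (KO 1.79, WT -0.23) and the carboxypeptidase subunit gene Cpn1 by 3.10 (KO 1.00, WT -2.10). Of metabolic and ribosomal genes, Hmgcs1 differed by 1.35 (KO 1.20, WT -0.14), the hyaluronan synthase gene Has1 by 1.68 (KO 1.23, WT -0.45) and Rpl29 by 1.27 (KO 0.95, WT -0.32). Near microRNA hairpins, Gm37352 differed by 2.78 (KO 2.21, WT -0.57), Mir23a by 2.60 (KO 2.40, WT -0.20), Gm14636 by 1.87 (KO 1.79, WT -0.08) and 3110039I08Rik by 1.22 (KO 1.11, WT -0.11). The nuclear RNA Neat1 differed by 1.32 (KO 1.14, WT -0.18) and its neighbour Malat1 by 1.06 (KO 0.62, WT -0.44).

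The KO ratio was the lower for 13 genes. Of ATF4 and CHOP targets, Chac1 differed by -2.71 (KO -0.28, WT 2.43), Trib3 by -1.61 (KO -0.21, WT 1.40) and Herpud1 by -1.35 (KO -0.30, WT 1.05). Among genes called lower in KO cells, Plppr2 differed by -1.81 (KO -1.74, WT 0.06), Zfp772 by -1.75 (KO -1.53, WT 0.22), Gm26749 by -1.71 (KO -1.58, WT 0.14), Gm42600 by -1.37 (KO -1.33, WT 0.04), Cep19 by -1.27 (KO -1.16, WT 0.11) and Gm23935 by -1.30 (KO -1.08, WT 0.21). The heat shock gene Hspa2 differed by -1.63 (KO -1.26, WT 0.37) and Rpl18 by -1.22 (KO -1.22, WT 0.00), the second on few counts. The autophagy gene Map1lc3a differed by -1.24 (KO -0.62, WT 0.62), and the ribonucleoprotein gene Nop10 by -1.10 (KO -0.27, WT 0.83).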

How the results depend on the processing

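The balance of higher and lower calls depended on the count limit. Against 314 higher and 316 lower genes (49.8% higher) at a mean count of 30, a limit of 10 gave 800 and 924 with an early transcription factor median of 1.27, a limit of 1 gave 1756 and 1931, and a limit of 100 gave 128 and 57 (69.2% higher) with a median of 1.07. A log2 threshold of 2 gave 54 and 56. Chosen after seeing the data, a limit of 1000 gave 49 and 1 (98.0% higher) with a median of 1.27, and protein-coding genes alone gave 188 and 155 (54.8% higher). In the count-limit settings the list median moved because the limit changes which members are measured. Scaling by total protein-coding counts, by DESeq2 median-ratio factors or by TMM over all genes, a prior of 5 and removal of a length trend gave 278 to 318 higher and 247 to 326 lower calls and early medians of 1.17 to 1.20. The ATF4 and CHOP target median stayed between 0.02 and 0.10 in every setting that gave one. Of 196 named genes, 2 lost their call with total protein-coding counts (Csrnp1 and Nfkbiz), 4 with a prior of 5 (Relb, Acta1, Gm37733 and Itgb1bp2) and 3 with the length trend removed (Jund, Csrnp1 and Itgb1bp2), and none reversed. No paired analysis was possible because each group is 1 library, and for the same reason no replicate could be left out. Counts under 100 limit most calls on either side.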

Other observations

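Genes on none of the lists, chosen after their values were seen, held further higher RNAs. Tcim, a small regulator gene of growth and endothelial signalling, had 211 CPM in KO leucine-free, 37.0 in KO replete, 42.7 in WT leucine-free and 14.9 in WT replete cells, with log2 ratios of 2.51 (2.43 to 2.60) in KO and 1.52 in WT cells. Socs1, a feedback inhibitor gene of cytokine signalling, stood at 1.84 in KO and -0.24 in WT cells, and its footprints stood at 1.82. Kctd11, an adaptor gene for ubiquitin ligases, had 72.4 CPM in KO leucine-free and 20.9 CPM in KO replete cells, and the KO pair differed by 1.79 and the WT pair by -0.23. Arid5a, which encodes an mRNA-stabilising protein, stood at 1.86 in KO and 0.15 in WT cells, and the small GTPase gene Rhob at 1.29 and 0.67. KO leucine-free cells held the highest level of Tcim, Kctd11 and Rhob among the 4 libraries.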
